A study of Mus musculus with 6 samples.

Results

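Venous endothelial cells, which line the veins and venules of the brain, were picked from 2 single-cell RNA sequencing (scRNA-seq) preparations of mouse brain by the transcripts they held, and 240 of 4770 endothelial cells met the rule. Both used female C57Bl/6J mice. For prep 1 the cerebral cortex was taken from 3 animals at 3 weeks of age, for prep 3 the hippocampus from 3 others at 5 weeks. No transgene or treatment is named for either group. The animals were perfused with buffer, the tissue was digested with enzymes and myelin was removed on Percoll. In each preparation the cells of the 3 animals were pooled and run as 3 technical replicates on a droplet platform, where every RNA molecule is counted by its unique molecular identifier (UMI). Each preparation was therefore 1 biological sample, so no test was made, and region, age and preparation cannot be told apart. The libraries held 39662203 to 50024850 UMIs in all, and the venous cells 842128 UMIs in the hippocampus. Errors are SDs over the technical replicates, and the 95% intervals, which are exact, reflect counting error alone.

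A barcode was kept with 250 to 6000 genes and under 15% mitochondrial UMIs, which left 25964 of 33273 barcodes. An endothelial cell held a UMI for at least 4 of 6 endothelial genes (*Cldn5*, *Pecam1*, *Flt1*, *Cdh5*, *Itm2a*, *Egfl7*) and for at most 1 of 6 genes of mural cells, microglia and astrocytes (*Pdgfrb*, *Kcnj8*, *Acta2*, *P2ry12*, *Cx3cr1*, *Aqp4*). A venous cell also held a UMI for at least 3 of 7 venous genes (*Ackr1*, *Lrg1*, *Ch25h*, *Adgrg6*, *Il1r1*, *Myof*, *Vwf*) and at most 1 of 4 arterial genes (*Gkn3*, *Bmx*, *Vegfc*, *Sema3g*). The remaining 4530 endothelial cells, which may include venous cells with fewer of the 7 genes found, served for comparison. A further group, called arterial-marked, was formed by the 407 of them with at least 2 of the 4 arterial and at most 1 of the 7 venous genes.

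Along the vessels of the brain, endothelial cells change from artery through capillary to vein. Arterial identity depends on Notch signalling through ligands such as *Dll4* and targets such as *Hey1*, whereas venous identity is maintained by the nuclear receptor *Nr2f2* (COUP-TFII), which represses Notch. Venules are the site where leukocytes leave the blood, with the help of adhesion molecules and the chemokine-binding receptor *Ackr1*.

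In the cortex, 171 of 2836 endothelial cells were venous, which is 6.03% ± 0.520 (SD, n = 3 technical replicates; interval 5.18 to 6.97). The replicates gave 62, 54 and 55 cells, or 6.57%, 5.54% and 5.99% of their endothelial cells. In the hippocampus, 69 of 1934 were venous, which is 3.57% ± 0.453 (SD, n = 3 technical replicates; interval 2.79 to 4.49), with 21, 27 and 21 cells, or 3.23%, 4.08% and 3.38%. The cortical and hippocampal replicates did not overlap. The rule needs several low transcripts in 1 cell and so takes deeper cells, and this share depends on it. The median venous cell held 15465 UMIs in the cortex against 6710 in the other endothelial cells, and 10622 against 6569 in the hippocampus. When all cells were first thinned to 3000 UMIs, 1.51% and 1.13% met the rule. For this reason ratios are also given against depth-matched cells, the 3 other endothelial cells of the same library nearest in UMIs to each venous cell, with medians of 15428 and 10662 UMIs. The median mitochondrial share of venous cells was 6.58% in both preparations, against 5.73% and 5.18% in the other endothelial cells.

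Of the 240 cells, 130 held exactly 3 of the 7 venous genes, 68 held 4, 26 held 5, 8 held 6 and 8 held all 7. Barcodes were marked as microglia by at least 6 of 8 microglial genes and as astrocytes by at least 5 of 7 astrocyte genes. None of the 6170 cortical and 5976 hippocampal microglia-marked barcodes held 3 or more of the 7 venous genes. The same was true of the 1832 and 1635 astrocyte-marked ones. Median depths were 5489 and 6631 UMIs for microglia-marked and 7327 and 7698 UMIs for astrocyte-marked barcodes, below those of venous cells. Shallower cells meet the rule less often, so these counts do not show how specific the rule is. Scrublet called 5 of the venous cells doublets, and they were kept. The hippocampal libraries shared 304, 274 and 257 barcodes pairwise and the cortical libraries 22, 16 and 11, and of the venous cells 2 had a barcode that another library of their preparation also held.

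The genes of the rule describe the cells and are no finding. Most cells were chosen by *Vwf* (von Willebrand factor, which captures platelets), *Il1r1* (the interleukin-1 receptor), *Myof* (myoferlin, a membrane repair protein) and *Adgrg6* (an adhesion G protein-coupled receptor). These had a UMI in 98.8%, 84.8%, 76.6% and 66.1% of cortical and in 100%, 79.7%, 82.6% and 58.0% of hippocampal venous cells. In the shallower other endothelial cells the shares were 47.4%, 11.8%, 5.10% and 1.73% in the cortex. In those of the hippocampus they were 39.9%, 8.63%, 5.25% and 0.429%. *Ackr1* was found in 23 of 171 cells (13.5%, interval 8.72 to 19.5) and 11 of 69 (15.9%, interval 8.24 to 26.7), *Lrg1* (a secreted modulator of TGF-beta signalling) in 12.3% and 11.6%, and *Ch25h* (cholesterol 25-hydroxylase) in 22.2% and 23.2%. In microglia-marked cells, which should lack it, *Ackr1* had a UMI in 0.0486% and 0.100%, at median depths of 5489 and 6631 UMIs, and in astrocyte-marked cells in 0.819% and 0.428%. The level of *Ackr1*, in UMIs per 1000000 UMIs of the group (CPM), was 5.79, 126 and 86.0 in the cortical replicates and 18.4, 12.6 and 23.7 in the hippocampal ones. Cortical replicate 1 thus stood far below the other cortical replicates for this gene, and it was also low for *Lrg1* (7.72 against 78.4 and 21.8 CPM). It was also the lowest of the cortical replicates for *Adgrg6*, though by less, with 94.5 against 125 and 119 CPM, and for *Vwf*, with 525 against 909 and 675 CPM. In the hippocampal replicates *Adgrg6* was at 110, 155 and 103 CPM. Of the 4 arterial genes, *Gkn3* had no UMI in any cortical and *Bmx* none in any hippocampal venous cell. Of the 6 endothelial genes, *Cldn5* (claudin-5, of tight junctions) differed from the other endothelial cells by log2 ratios of -0.15 and 0.03, and *Flt1* (VEGFR-1, a VEGF receptor) by -0.54 and -0.51.

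The name of the cells was checked with *Nr2f2* (chr7:70351944-70366735, GRCm38), which the rule did not use. Its level in venous cells was 269, 215 and 260 CPM in the cortical replicates and 180, 196 and 261 CPM in the hippocampal ones. All 6 venous values lay far above those of the other endothelial cells, which were 56.1 ± 1.02 CPM and 43.7 ± 3.16 CPM (SD, n = 3), and above the 13.3 and 18.3 CPM of the arterial-marked cells. The venous level was 4.44-fold higher (interval 4.04 to 4.88) in the cortex and 4.81-fold (4.05 to 5.70) in the hippocampus. On the scale of log2(CPM + 5) the differences were 2.06 ± 0.15 and 2.14 ± 0.37, and 1.93 and 1.94 against the depth-matched cells. *Nr2f2* was found in 87.7% and 82.6% of venous cells, in 25.2% and 19.0% of the other endothelial cells and in 0.308% and 1.61% of microglia-marked cells. Astrocyte-marked cells held it in 2.51% of cortical but 28.6% of hippocampal cells. After thinning to 1000 UMIs, with 2 and 1 shallower venous cells left out, the shares were 18.9% and 25% of venous against 5.63% and 3.60% of the other endothelial cells.

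All genes, those of the rule included, were then compared by the log2 ratio of (CPM + 5) between venous and other endothelial cells. Only genes with a mean of at least 20 CPM over both groups were counted. A gene low in 1 group could meet this filter through the group where it was high. In the cortex 87 of 6204 genes (1.4%) were at or past 2-fold higher in venous cells and 81 (1.31%) at or past 2-fold lower. In the hippocampus 83 of 6552 (1.27%) were higher and 124 (1.89%) lower. Of the 5977 genes measured in both, 33 outside the rule were higher in both preparations, every one of them in all 6 libraries, and 44 were lower in both, 42 of them in all 6 libraries. A further 3 genes were past 2-fold in opposite directions. The median gene had a log2 ratio of 0.03 in the cortex and -0.03 in the hippocampus.

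**Figure D1:**
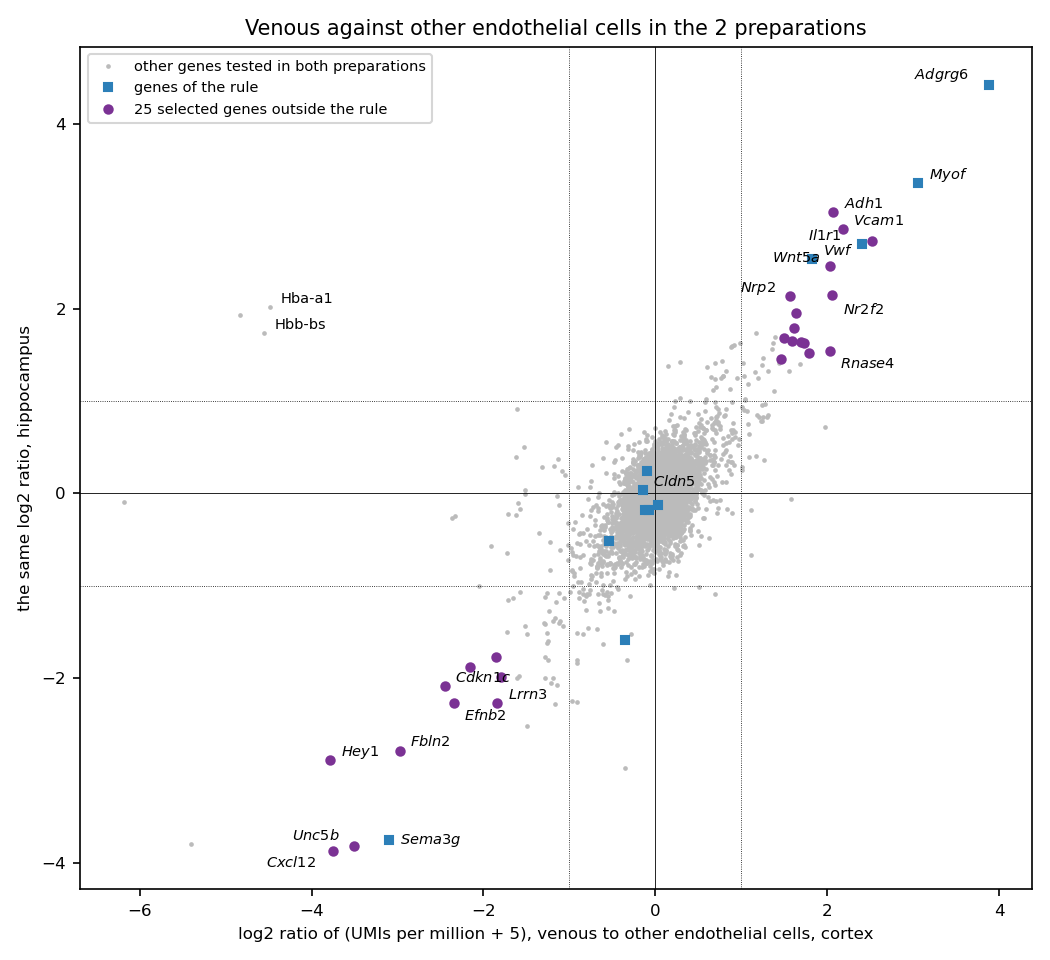
Each point is a gene with a mean of at least 20 CPM in both preparations, placed by its log2 ratio of (CPM + 5) between venous and other endothelial cells in the cortex (x axis) and in the hippocampus (y axis). Dotted lines mark 2-fold, blue squares are genes of the rule and purple circles the 25 genes selected outside it. *Vcam1*, *Adh1* and *Nr2f2* lie at the upper right and *Cxcl12*, *Unc5b* and *Hey1* at the lower left, while the haemoglobin genes lie at the upper left, where the hippocampal value rests on 1 cell.

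The highest ratios in both preparations included adhesion and signalling genes. *Vcam1*, the adhesion molecule that binds leukocyte integrins, was at 149, 288 and 194 CPM in the cortex and 319, 530 and 486 CPM in the hippocampus. The other endothelial cells had 41.8 ± 8.89 and 57.7 ± 9.06 CPM, which gave log2 ratios of 2.18 ± 0.33 and 2.86 ± 0.57. *Vcam1* was not low in arterial-marked cells, where it reached 159 and 113 CPM, and against depth-matched cells its log2 ratios were 1.60 and 1.99. Astrocyte-marked cells had a *Vcam1* UMI in 78.4% and 72.7% of cells, at 306 and 232 CPM, and the part of their transcripts in the ratio was not tested.

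*Adh1*, an alcohol dehydrogenase that also oxidises retinol, was at 38.1 ± 5.09 CPM in cortical and 77.2 ± 3.07 CPM in hippocampal venous cells. The others held 5.26 and 4.94 CPM, so *Adh1* met the filter only through the venous cells. *Wnt5a*, a secreted Wnt ligand, had log2 ratios of 2.03 and 2.46, and *Nrp2*, a coreceptor for VEGF-C and semaphorins, 1.56 and 2.14. The cortical replicates of *Nrp2* differed, with 50.2 CPM in replicate 1 against 121 and 115 CPM in the other two. *Flrt2* (a transmembrane guidance protein; 1.61 and 1.79), *Frem2* (an extracellular matrix protein; 1.58 and 1.65), *Ctsc* (the protease cathepsin C; 1.63 and 1.95), *Net1* (an exchange factor for RhoA; 1.73 and 1.62), *Ptgis* (prostacyclin synthase; 1.79 and 1.52) and *Acsl4* (a ligase for long-chain fatty acids; 1.46 and 1.46) were also past 2-fold in both. For *Ptgis* the hippocampal ratio was 0.82 against depth-matched cells, and its hippocampal replicates spread from 80.7 to 15.8 CPM.

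*Rnase4* and *Ang* encode ribonucleases and were higher by log2 ratios of 2.03 and 1.49 in the cortex and 1.54 and 1.68 in the hippocampus. In the annotation *Rnase4* (chr14:51091077-51106151) and *Ang* (chr14:51091150-51102009) overlap on the same strand, so their counts are uncertain as those of separate genes. RefSeq, unlike the annotation used for these positions, starts both genes at 51091077, and the promoter shown here is the 250 bases before that start (chr14:51090827-51091076, + strand, GRCm38.p6, from RefSeq), which is given because both genes have the same RefSeq entry. No motif was searched in it. Of the 15 genes selected on this side, 10 had a promoter entry.
Rnase4 and Ang promoter: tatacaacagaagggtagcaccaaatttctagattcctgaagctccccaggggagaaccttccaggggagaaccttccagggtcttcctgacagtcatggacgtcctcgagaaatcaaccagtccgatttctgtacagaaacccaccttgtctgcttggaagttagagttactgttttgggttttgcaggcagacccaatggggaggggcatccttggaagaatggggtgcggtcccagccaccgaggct

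Among the 10 genes selected as lower in both preparations, 5 belong to the list of arterial genes outside the rule. That list had 11 of the 6204 genes measured in the cortex and 13 of the 6552 in the hippocampus. Cells with at least 2 of the 4 arterial genes were barred from the venous group but kept in the comparison. Lower arterial genes are thus partly built in by the rule. *Cxcl12* (chr6:117168535-117181367), a chemokine made by arterial and capillary endothelium, was at 174, 173 and 204 CPM in cortical and 154, 101 and 249 CPM in hippocampal venous replicates. The other endothelial cells held 2521 ± 337 and 2444 ± 72.7 CPM, so that every venous replicate lay far below every other one. This was 13.8-fold lower (interval 12.7 to 15.1) in the cortex and 15.0-fold lower (12.7 to 17.9) in the hippocampus, with log2 ratios of -3.21 and -3.44 against depth-matched cells. *Hey1*, a Notch target, had 3.86, 4.61 and 0 CPM in the cortex and 7.34, 6.32 and 3.95 CPM in the hippocampus, against 104 and 75.7 CPM in the others and 308 and 203 CPM in arterial-marked cells. *Unc5b*, a netrin receptor of arterial and tip cells, had log2 ratios of -3.50 and -3.82, *Efnb2* (ephrin-B2, the arterial ligand) -2.34 and -2.27, and *Dll4* -1.85 and -1.77. *Fbln2* (fibulin-2; -2.98 and -2.78), *Cdkn1c* (the cell cycle inhibitor p57; -2.45 and -2.09), *Syne1* (a nuclear envelope protein; -2.16 and -1.88), *Lrrn3* (-1.84 and -2.27) and *Tcim* (-1.80 and -1.99) completed the 10 genes.

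**Figure D2:**
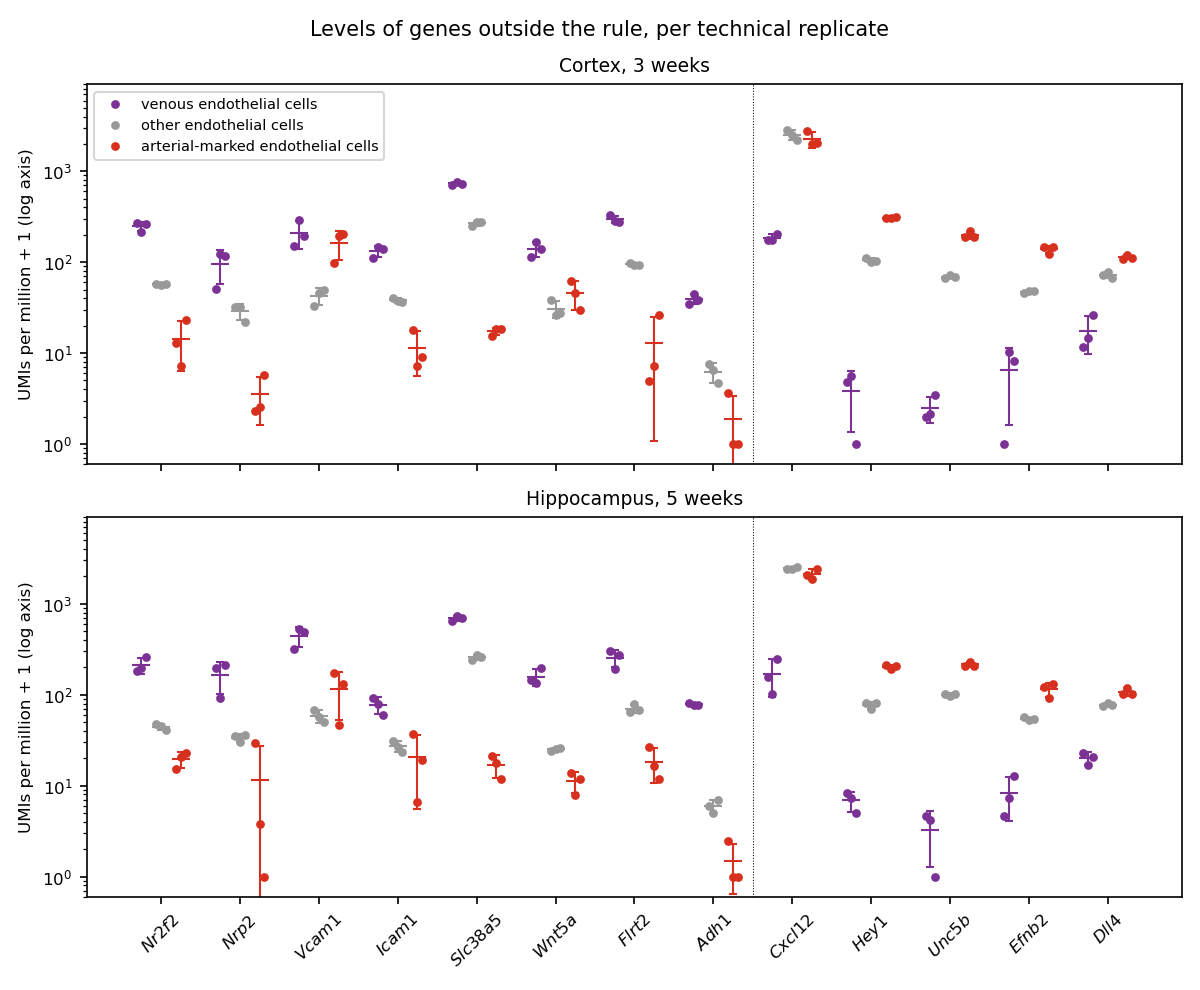
Levels in CPM + 1 (log axis) of 13 genes outside the rule in cortex (top) and hippocampus (bottom); each point is 1 technical replicate, and bars give the mean and SD (n = 3), cut off where they pass below the axis. Venous replicates (purple) lie above the other endothelial cells (grey) for the 8 genes on the left and below them for the 5 on the right, and arterial-marked cells (red) are low for most of the former, but not for *Vcam1*, with 159 and 113 CPM.

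Venous genes that the rule left out were described as a list of 12. It was chosen with earlier results of these data known, so its counts are a description and no independent support. Of the 11 measured in the cortex, 7 were at or past 2-fold higher and none lower, with a median log2 ratio of 1.56, beside the 1.4% of all genes given above. In the hippocampus it was 6 of 10, none lower, with a median of 1.40. *Slc38a5*, a glutamine transporter, was at 731 ± 25.5 against 268 CPM in the cortex and 692 ± 46.8 against 257 CPM in the hippocampus, but only at 16.3 CPM in the arterial-marked cells of both. *Icam1*, another leukocyte ligand, had log2 ratios of 1.69 and 1.40 (0.98 against depth-matched cells in the hippocampus). Microglia-marked cells had an *Icam1* UMI in 42.7% and 38.3% of cells and held it at 124 and 75.4 CPM, beside 131 and 77.2 CPM in venous cells, and the part of their transcripts in the ratio was not tested. *Lcn2* (lipocalin-2, which binds bacterial siderophores) was at 82.9, 194 and 126 CPM in the cortical replicates, a log2 ratio of 2.99. It met the filter there only through the venous cells, with 12.1 CPM in the others. In the hippocampal replicates it was at 22.0, 25.3 and 43.5 CPM and missed the filter. Other classical venous genes were closer to the rest. *Aplnr* (the apelin receptor; 0.73 and 0.75), *Ephb4* (the venous receptor for ephrin-B2; 0.59 and 0.44), *Flt4* (VEGFR-3; -0.10 and -0.28) and *Emcn* (endomucin; -0.68 and -0.80) did not reach 2-fold, and *Selp* (P-selectin) was at 1.10 and 1.19 CPM.

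In the list of 15 arterial genes outside the rule, 7 of 11 measured in the cortex were at or past 2-fold lower. In the hippocampus it was 8 of 13, and none was higher in either preparation. The medians were -1.50 and -1.77, and 1.31% and 1.89% of all genes were lower. This list too was chosen with earlier results known, and the rule barred cells with at least 2 arterial genes from the venous group alone. These counts are therefore a description and no independent support. In the hippocampus *Stmn2* had no UMI in venous cells against 82.1 CPM in the others (at least 23.0-fold lower, against 3 counts over the group), and *Fbln5* none against 41.8 CPM (at least 11.7-fold lower). *Mgp* (matrix Gla protein) had log2 ratios of -1.50 and -1.53, but the sign turned (1.02 and 0.36) when cells were thinned to 3000 UMIs before the rule, and also (2.11 and 2.90) when only endothelial cells with at most 1 venous and at most 1 arterial gene were compared. *Eln* (elastin) had -1.09 in the cortex, which turned to 0.82 and 1.95 in the same settings, and 0.24 in the hippocampus. *Jag1* (-0.40 and -0.27), *Sox17* (-0.67 and -0.57), *Edn1* (-0.42 and -0.69) and *Nrp1* (-0.92 and -0.53) stayed within 2-fold.

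In lists of this size the 1.27% to 1.89% of all genes past 2-fold in each direction would amount to less than 1 gene, so few or no members past 2-fold is no result about a list. Of 12 capillary genes all were measured, and *Rgcc* (a cell cycle regulator induced by complement; -1.59 and -1.98) was the only one past 2-fold in either preparation, with medians of 0.06 and -0.25 for the list. *Mfsd2a*, which carries lysophospholipids and restrains transcytosis, stood at -0.90 and -0.96. Among 16 barrier transporters *Slc38a5* alone was past 2-fold. None of the 10 measured tight junction genes and none of the 7 caveolar genes was past 2-fold in either preparation, and *Plvap*, the diaphragm protein of leaky vessels, had no UMI in cortical venous cells. Among the 18 measured endothelial transcription factors, *Nr2f2* alone was past 2-fold, and the next among the higher genes was *Fli1* (0.66 and 0.74).

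Leukocyte adhesion, cytokine and haemostasis lists held few members past 2-fold, beside 1.4% and 1.27% of all genes higher and 1.31% and 1.89% lower. Of 11 and 10 measured adhesion genes, *Vcam1* and *Icam1* were past 2-fold in both preparations, while *Sele* (E-selectin) was at 0.366 and 0 CPM. Of 11 cytokine receptor genes, 2 were past 2-fold in each preparation. *Il1r1* belongs to the rule, and the other was *Il6ra* (the interleukin-6 receptor; 1.22) in the cortex and *Il6st* (gp130, its signalling partner; 1.43) in the hippocampus, where *Il6ra* stood at 0.78 and in the cortex *Il6st* at 0.78. Of the NF-kappaB and STAT3 response genes, *Lcn2* alone was past 2-fold among 4 measured in the cortex, and *Lrg1* (of the rule) and *Ptgs2* (cyclooxygenase-2; 2.87) among 7 in the hippocampus. *Ptgs2* had a ratio of 1.73 in the cortex, where it missed the filter. In the hippocampus it met the filter only through the venous cells. In the haemostasis list *Vwf* (of the rule) and *Ptgis* were past 2-fold in both, *S100a10* (a plasminogen receptor subunit) in the cortex (1.97, and 0.71 in the hippocampus), and *Angpt2* (a Tie2 antagonist) was lower in the cortex (-1.49, but 0.91 with at least 2 venous genes in the rule). Of the chemokine genes measured, 4 and 3, *Ackr1* (of the rule, cortex) and *Cxcl12* were past 2-fold, whereas *Ackr3* was at 0.13 and 0.28.

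The other pathway lists held 0 to 2 genes past 2-fold, beside the same shares of all genes, and these counts describe single genes only. *Adgrg6*, of the rule, was the only adhesion G protein-coupled receptor among 7, and *Ch25h*, of the rule, the only oxysterol gene among 5 and 7, in the hippocampus. In the TGF-beta and BMP list none of 13 passed in the cortex, and in the hippocampus *Lrg1* (of the rule) was higher and *Smad6* (an inhibitory Smad; -1.17) lower among 14. *Nrp2* was higher in both preparations in the list of VEGF, Tie and apelin genes, with *Angpt2* lower in the cortex and *Vegfc*, of the rule, lower in the hippocampus. Basement membrane genes had medians of -0.47 and -0.54, with *Nid2* (nidogen-2; -1.11, but 0.39 with at least 2 venous genes) past 2-fold in the cortex and *Lama5* (laminin alpha-5; -1.09) and *Hspg2* (perlecan; -1.01) in the hippocampus. None of 15 immediate early and stress genes passed in the cortex, while *Egr1* (-1.03, but 0.69 with cells thinned before the rule) and *Nr4a1* (-2.66) were lower among 16 in the hippocampus. None of 11 interferon and MHC genes was past 2-fold in either preparation.

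Summed over the replicates, the marker lists of astrocytes, smooth muscle, blood leukocytes and erythroid cells were higher in hippocampal venous than in the other endothelial cells. So were lymphatic genes in the cortex, and the other sums were lower. For astrocytes and erythroid cells the hippocampal direction held in replicate 2 alone, and for blood leukocytes in replicate 3 alone. For smooth muscle it was reversed in replicate 1. The part of these transcripts in the ratios was not tested. The 10 pericyte genes summed to 158, 295 and 115 CPM in cortical and 128, 193 and 296 CPM in hippocampal venous replicates, led by *Rgs5*, against 428 and 470 CPM in the other endothelial cells. The 7 fibroblast genes summed to 3.66 against 24.2 CPM in the cortex and 1.19 against 16.8 CPM in the hippocampus, with *Lum* and *Slc6a13* at 0 in both preparations. The 6 smooth muscle genes summed to 26.4 against 99.6 CPM and 53.4 against 43.6 CPM, led by *Mylk*, with *Myh11* and *Cnn1* at 0. By hippocampal replicate they gave 22.0, 85.3 and 47.4 CPM, against 44.8, 43.9 and 41.8 CPM in the other endothelial cells. The 7 astrocyte genes, led by *Slc1a2*, summed to 195, 284 and 188 CPM in the cortex, and to 55.0, 985 and 83.0 CPM in the hippocampus, where replicate 2 stood apart. The other endothelial cells had 581 CPM in the cortex and 359 CPM in the hippocampus, where their replicates gave 273, 307 and 507 CPM. The 8 microglial genes summed to 77.3 against 101 CPM in the other endothelial cells of the cortex and to 173 against 191 CPM in the hippocampus. The 5 oligodendrocyte genes gave 8.79 against 10.3 CPM in cortical venous cells, with *Mog* at 0, and 90.2 against 1107 CPM in the hippocampus. For blood leukocytes the sums were 2.20 against 4.26 CPM in the cortex and 5.94 against 2.44 CPM in the hippocampus. By hippocampal replicate they were 0, 0 and 19.8 CPM, against 1.67, 1.69 and 4.07 CPM in the other endothelial cells. *S100a9*, *Cd3g* and *Plac8* were at 0 in venous cells of both preparations, and *Ptprc* and *S100a8* also in the cortex. For neurons the sums were 1.10 against 2.56 CPM and 2.37 against 8.74 CPM, with *Rbfox3* and *Dcx* at 0. The lymphatic genes summed to 15.4 CPM in cortical venous cells against 4.44 CPM, led by *Mmrn1* (12.5 CPM), with *Pdpn*, *Ccl21a* and *Reln* at 0 and *Prox1* at 0.366 CPM. In the hippocampus they gave 4.75 against 6.73 CPM, with *Prox1*, *Lyve1*, *Ccl21a* and *Reln* at 0. The choroid plexus genes summed to 41.0 against 78.3 CPM and 182 against 373 CPM, led by *Enpp2* and *Ttr*.

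Haemoglobin was counted cell by cell. In the cortex 114 of 2665 other endothelial cells and none of the 171 venous cells (which allows up to 1.75%) had over 10% haemoglobin UMIs, a limit set after the values were seen. Among depth-matched cells of the cortex there were 65 of 513 (12.7%). In the hippocampus 1 venous cell of replicate 2 held 7724 of the 7733 haemoglobin UMIs of all 69, and in the cortex 1 venous cell held 2579 of 3415 (75.5%). The erythroid genes summed to 2624, 596 and 220 CPM in cortical and 14.7, 24428 and 7.91 CPM in hippocampal venous replicates, led by *Hbb-bs*, against 32306 and 2804 CPM in the other endothelial cells. Without cells over that limit, 79 genes were higher and 84 lower in cortical venous cells, close to the counts above.

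The levels of several genes outside the rule differed step by step with the number of venous genes found in a cell. Among endothelial cells with at most 1 arterial gene, *Nr2f2* was at 38.7, 59.1, 101, 194 and 304 CPM in cortical cells with 0, 1, 2, 3 and at least 4 of the 7 genes, and at 26.0, 56.9, 127, 141 and 291 CPM in hippocampal ones. *Vcam1* went from 5.05 to 340 CPM and from 4.63 to 621 CPM over the same steps. *Cxcl12* took the opposite course, from 3667 to 132 CPM and from 3362 to 113 CPM. Across the threshold itself, the 317 cortical cells with 2 venous genes, just outside the rule, held 674 CPM of *Cxcl12* and 22.2 CPM of *Hey1*, and the 91 cells with 3, just inside, 233 and 2.94 CPM. The corresponding 133 and 39 hippocampal cells held 657 and 205 CPM of *Cxcl12*, and 17.2 and 11 CPM of *Hey1*. The intervals of *Nr2f2* for these hippocampal cells overlapped (109 to 147 and 109 to 180 CPM). Depth moved along the same steps, with median UMIs of 5558.5, 7554.5, 11287, 15070 and 16886 in the cortex and 6067, 6796, 8802, 10252 and 12733 in the hippocampus, and its part was not tested.

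**Figure D3:**
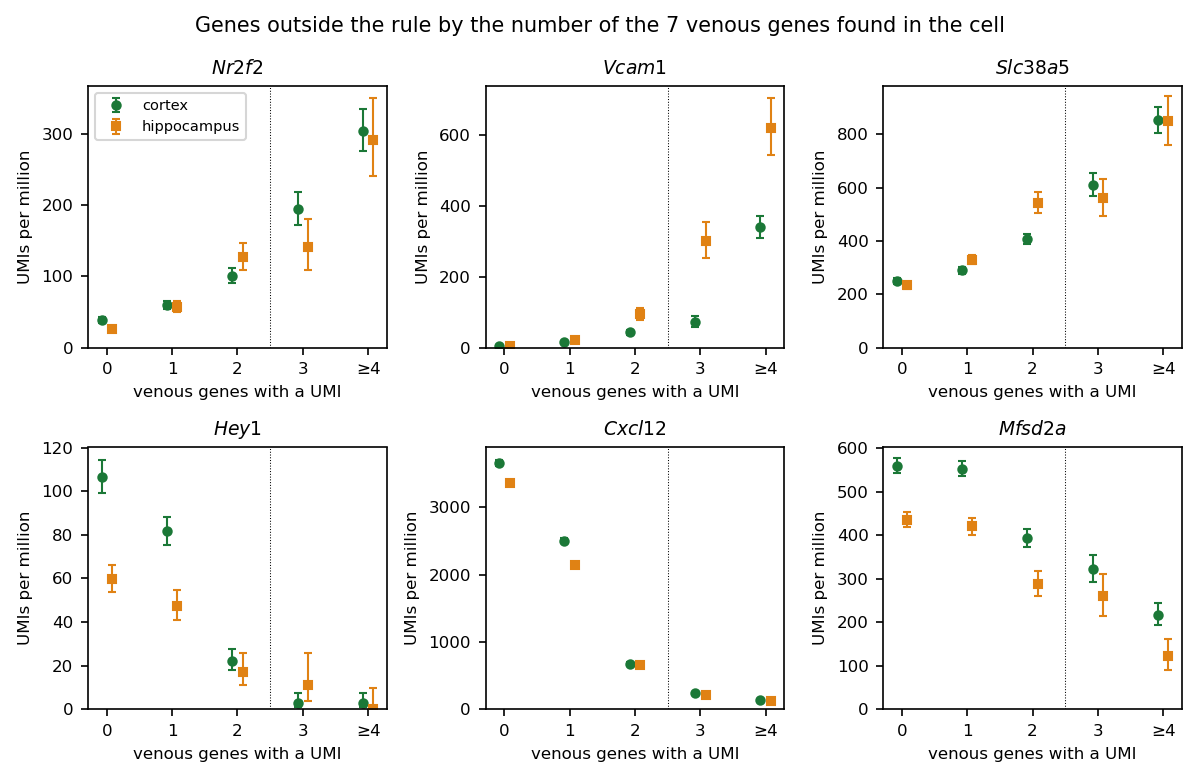
Levels in CPM of 6 genes outside the rule (y axes) by the number of the 7 venous genes found in a cell (x axes), for endothelial cells with at most 1 arterial gene; bars are exact 95% intervals for counting error, and the dotted line is the threshold of the rule. *Nr2f2*, *Vcam1* and *Slc38a5* climb from left to right while *Hey1*, *Cxcl12* and *Mfsd2a* decline, with *Cxcl12* from 3667 to 132 CPM in the cortex.

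Venous cells were not uniform. The 23 cortical and 11 hippocampal cells with an *Ackr1* UMI were set beside the 148 and 58 without one, which is a description, since *Ackr1*, *Vwf* and *Lrg1* belong to the rule. Median depth was lower in the former (13384 against 16062 UMIs, and 7436 against 11959.5). *Vwf* was 3.25-fold (interval 2.94 to 3.59) and 3.23-fold (2.75 to 3.77) higher in cells with *Ackr1*, *Vcam1* 5.77-fold (4.86 to 6.84) and 2.21-fold (1.70 to 2.84), *Lcn2* 5.61-fold and 6.47-fold, *Icam1* 2.56-fold and 3.40-fold, and *Nrp2* 3.00-fold and 2.99-fold. Without cortical replicate 2 *Vwf* was 2.01-fold higher (1098 against 545 CPM) and *Lcn2* 2.74-fold, and in the hippocampus *Lcn2* was 4.03-fold higher without replicate 1 and 11.96-fold without replicate 2. *Nr2f2* differed less, by 1.44-fold (1.15 to 1.77) and 1.89-fold (1.25 to 2.77), and the intervals of *Flrt2* included no difference (0.81, 0.630 to 1.03, and 1.05, 0.657 to 1.61, although the hippocampal ratio was 1.78 without replicate 1).

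Most capillary genes on the list were lower in cells with *Ackr1*, a description, since the list was chosen with earlier results of these data known. Of 12, 11 were lower in the cortex, 10 of them with an interval below 1, beside 54.6% and 6.71% of the 6211 genes measured. In the hippocampus 10 of 12 were lower, 9 of them with an interval below 1, beside 47.5% and 3.98% of 6503 genes. The median log2 ratio of the list was -0.87 and -0.75, against -0.045 and 0.036 over all genes. The exceptions were *Kdr* (0.902 and 1.13), *Slc2a1* in the cortex (1.06), and *Rgcc* (1.22) and *Mfsd2a* in the hippocampus. *Car4*, a carbonic anhydrase of capillary endothelium, was at 473 CPM in cortical cells with *Ackr1* against 1623 CPM without it (ratio 0.291, interval 0.245 to 0.344), and at 439 against 1165 CPM in the hippocampus (0.376, 0.267 to 0.517). By library, hippocampal cells with *Ackr1* held *Car4* at 1101, 140 and 26.9 CPM, against 1260, 1138 and 1098 CPM without it, so replicate 1 alone showed little difference. The *Car4* ratio moved with single libraries, to 0.495 without cortical replicate 2, 0.061 without hippocampal replicate 1 and 0.605 without hippocampal replicate 3. *Slco1c1*, the thyroxine transporter, gave ratios of 0.381 and 0.323, and *Spock2*, a proteoglycan, 0.432 and 0.241. In cortical replicate 1 *Slco1c1* was at 1207 CPM with *Ackr1* and 1221 CPM without it. *Mfsd2a* gave 0.433 (0.304 to 0.601) in the cortex, while in the hippocampus its interval included 1 (0.646, 0.326 to 1.16). Without cortical replicate 1 or 2 it gave 0.256 or 0.704, and in the hippocampus its 12 UMIs in cells with *Ackr1* left none without replicate 1 and a ratio of 0.981 without replicate 3. *Rgcc* gave 0.264 or 0.700 without cortical replicate 1 or 2, and in the hippocampus no UMI without replicate 1 and 2.20 without replicate 3.

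*Mgp*, listed as arterial, was higher in the cells with *Ackr1*, with 492 against 37.5 CPM in the cortex (13.1-fold, interval 10.0 to 17.2) and 855 against 40.0 CPM in the hippocampus (21.4-fold, 13.9 to 33.8). It had a UMI in 12 of 23 and 5 of 11 cells with *Ackr1*, and in 18 of 148 and 3 of 58 without it. A single cell held 32.0% of the *Mgp* UMIs of the cortical and 57.7% of those of the hippocampal *Ackr1* cells. By library, *Mgp* in cells with *Ackr1* was at 19.8, 819 and 257 CPM in the cortex and at 1376, 1076 and 269 CPM in the hippocampus, against 32.4, 30.6 and 51.4 CPM and 0, 54.2 and 64.9 CPM in cells without it. The difference was therefore seen in 5 of 6 libraries and not in cortical replicate 1, whose 5 cells with *Ackr1* also had *Vwf* at 495 CPM against 526 CPM in those without. The *Mgp* ratio was 4.45 without cortical replicate 2, 9.61 without hippocampal replicate 1 and 42.0 without hippocampal replicate 3. *Vcam1* was higher in cells with *Ackr1* in all 6 libraries. Among cells with *Ackr1* the fibroblast genes summed to 13.1 CPM in the cortex (4 UMIs), against 2.47 CPM without *Ackr1*, and to 0 against 1.33 CPM in the hippocampus, and the smooth muscle genes to 52.5 and 98.7 CPM, against 23.1 and 47.9 CPM without *Ackr1*. The choroid plexus genes summed to 68.9 against 37.5 CPM and to 285 against 169 CPM, and the pericyte genes to 85.3 against 202 CPM and to 76.8 against 218 CPM, and the part of these transcripts was not tested.

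**Figure D4:**
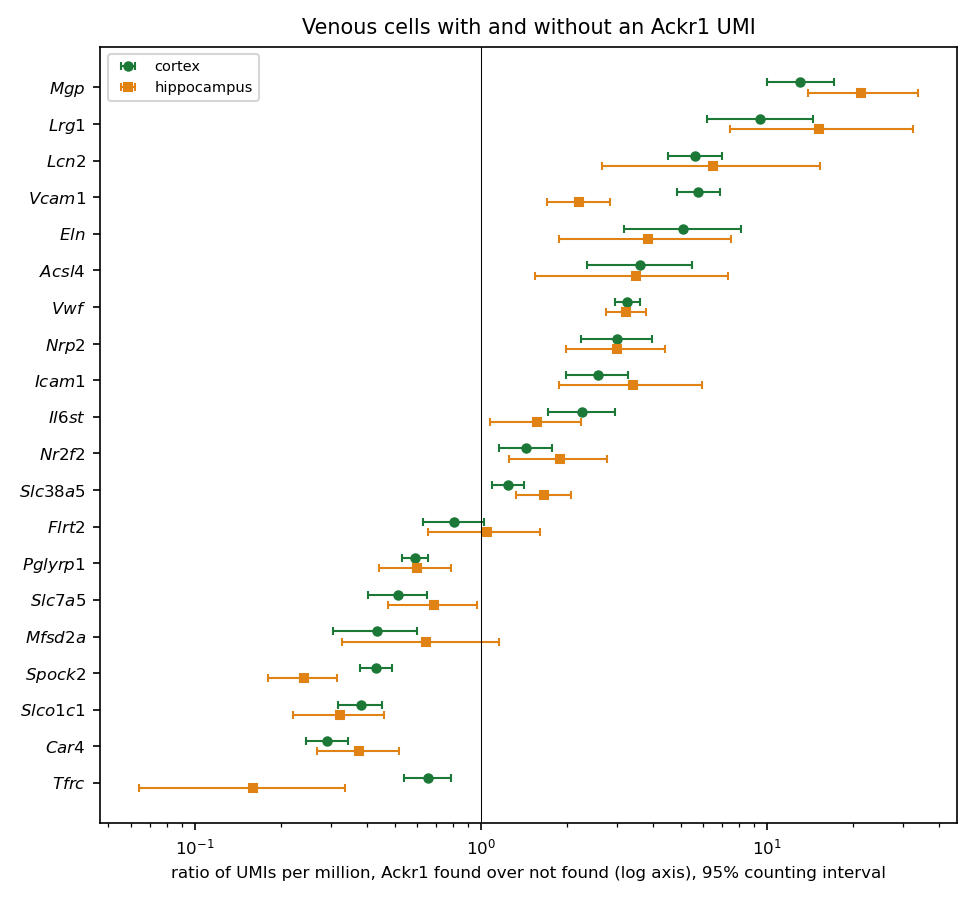
Ratio of levels (CPM, log axis) in venous cells with an *Ackr1* UMI over those without, for 20 genes in cortex (23 against 148 cells) and hippocampus (11 against 58 cells); bars are exact 95% intervals for counting error. *Mgp* lies furthest to the right (13.1 and 21.4), *Vwf* and *Nrp2* near 3, *Flrt2* at 0.81 and 1.05, and the capillary genes *Car4*, *Slco1c1* and *Spock2* to the left.

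A few cortical venous cells carried transcripts of mitosis, a class defined after the values were seen as a UMI for at least 3 of 8 mitotic genes (*Mki67*, *Top2a*, *Cdk1*, *Ccnb1*, *Ccnb2*, *Ccna2*, *Birc5*, *Cenpf*). They were 11 of 171 (6.43%, interval 3.25 to 11.2), with 4, 2 and 5 in the replicates. Among the other endothelial cells of the cortex they were 8 of 2665 (0.300%), among depth-matched cells 4 of 513 (0.780%), among cells with 2 venous genes 3 of 345 (0.870%), and among arterial-marked cells 0 of 197 (which allows up to 1.52%). In the hippocampus they were 0 of 69 venous cells (which allows up to 4.35%) and 1 of 1865 others. Summed UMIs of *Mki67*, the proliferation antigen, were 72, 12 and 58 in the cortical and 0 in every hippocampal venous replicate. None of the 11 was called a doublet, but they were deep cells, with a median of 22747 UMIs. Thinned to 3000 UMIs after the rule, 9 of 167 venous and 4 of 2440 other cells still qualified. Thinned before the rule, 0 of the 41 cortical cells that then met it (which allows up to 7.32%) and 19 of 2674 others were mitotic, so this result depends on when depth is equalised. With at least 2 or at least 4 venous genes in the rule the share was 2.87% (14 of 488) or 6.25% (5 of 80). In the cell cycle list 5 of 7 genes were past 2-fold higher in cortical venous cells and 0 of 2 in hippocampal ones, beside 1.4% and 1.27% of all genes. Genes such as *Mki67* and *Top2a* met the filter in the cortex only through the venous cells where they are high. These counts are therefore no result about the list. After thinning before the rule *Mki67* had a cortical log2 ratio of -1.34. Without the mitotic cells, the count of genes higher in cortical venous cells was 67 instead of 87.

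The 11 mitotic cells held *Nr2f2* at 247 CPM, beside 249 CPM in the remaining 160 cortical venous cells. Of the rule genes, *Il1r1* was at 41.9 (interval 19.2 to 79.6) against 148 CPM and *Myof* at 23.3 (7.56 to 54.3) against 114 CPM. *Vwf* was at 275 (209 to 354) against 728 CPM. *Lrg1* was at 0 (up to 17.2) against 37.4 CPM, but only 21 of all 171 cells held it. These genes chose the cells, and deeper cells meet the rule more often, so these values are no finding. *Slc38a5* was at 326 against 766 CPM, and *Cxcl12* at 27.9 against 196 CPM.

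**Figure D5:**
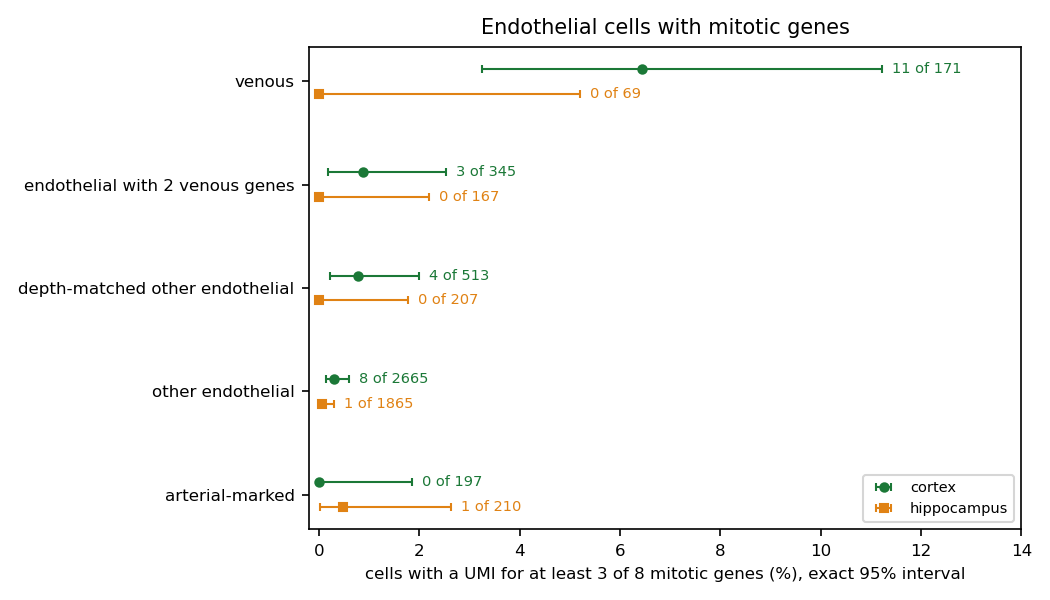
Share of cells with a UMI for at least 3 of 8 mitotic genes (x axis, %) for 5 groups of endothelial cells, in cortex (green) and hippocampus (orange); points are shares, bars exact 95% intervals, and labels give the cells counted. The cortical venous cells stand at 6.43%, and the other cortical groups lie below 1%.

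Cortical and hippocampal venous cells were then compared directly, beside the same ratio in the other endothelial cells. In venous cells 107 of 6403 genes (1.67%) were at or past 2-fold higher in the hippocampus and 99 (1.55%) in the cortex, 23 and 29 of them in all 9 pairs of libraries. In the other endothelial cells 70 of 6381 (1.1%) and 52 (0.815%) were. Of the 107 and 99 genes, 38 and 29 were past 2-fold in the other endothelial cells too. Several of the largest values were shared in this way. The gene lists used in counting differed between the preparations, and their part in these values was not tested. *Gm45837*, with log2 ratios of 4.96 in venous and 4.96 in other cells, had no UMI in either cortical group. *Gm49342* (4.96 and 4.82), *Tonsl* (4.25 and 4.60), *Srp54c* (4.05 and 4.08) and *Sept2* (3.50 and 3.72) were alike, as were, in the cortical direction, *Fbxl7* (-3.66 and -3.56) and *Foxl2* (-3.59 and -3.42). *Ttr* (transthyretin, made by the choroid plexus) was at 143, 94.7 and 90.9 CPM in hippocampal venous replicates and at 0.964, 0 and 0 CPM in cortical ones, but it was higher still in the other hippocampal endothelial cells (242 CPM).

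Other genes differed in venous cells more than in the rest. *Igfbp3*, which binds insulin-like growth factors, was at 72.3, 90.0 and 87.2 CPM in cortical and 0, 3.16 and 0 CPM in hippocampal venous replicates, with a log2 ratio of -3.82, beside -1.21 in the other endothelial cells. Arterial-marked cells held more *Igfbp3* and also differed, with 665 CPM in the cortex and 72.7 CPM in the hippocampus. The difference was therefore not particular to venous cells. *Cdk1* (-3.95 and -1.17) and *Mki67* (-3.51 and -0.28), of the mitotic genes above, were also higher in cortical venous cells. So was the cyclin kinase subunit *Cks2* (-3.36 and -0.56). In the cortex the 11 venous cells classed as mitotic held *Mki67* at 652 CPM, and the other 160 at 0.795 CPM. The ratios between preparations without the cells classed as mitotic are not reported here. Of single genes named above, *Vcam1* (1.10 and 0.42), *Il6st* (1.19 and 0.54) and *Ptgs2* (1.20 and 0.07) were higher in hippocampal venous cells. *Lcn2* (-1.97 and -0.95) and *Ackr1* (-1.68 and 0.12) were higher in cortical ones, although *Ackr1* in cortical replicate 1 (5.79 CPM) lay below all 3 hippocampal replicates. These genes come from different lists and describe no group. The difference between venous and other cells in these ratios was not tested. *Nr2f2* differed by -0.24 and *Slc38a5* by -0.08, and the hippocampal and cortical replicates of *Nr2f2* overlapped.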

How the data were processed

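The deposited matrices held counts of UMIs per gene and barcode, made by the authors with Cell Ranger (5.0.1 by the methods and labels, 3.0.1 and 3.1.0 in the cortical and hippocampal matrix headers) on mm10. Cells of 3 mice were pooled per preparation, so its 3 libraries are technical replicates. Prep 2 was not analysed here. The members and gene lists were chosen with earlier results of these data known, and the cells were chosen by the same counts that are compared, so no p-value is given.

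UMIs were summed over the cells of a group and divided by their total over the 27514 gene identifiers that both preparations list (at least 99.8% of UMIs in every library) to give CPM, which can be set by few cells where counts are low. Ratios used a pseudocount of 5 CPM and a minimum mean of 20 CPM. A gene was counted at 2-fold. Intervals are exact (Clopper-Pearson for shares, conditional Poisson for folds, at 95%), and the limit of a count of 0 is 3 counts. Outside the rule, the 15 genes with the highest and the 10 with the lowest smaller ratio of the 2 preparations were named, if past 2-fold in both and in 1 direction in all 6 libraries. Between preparations the 6 largest each way in all 9 library pairs were named, and for gene lists the largest ratios. Values of some selected genes are not reported here. Names and positions are from GENCODE (GRCm38). Doublets were called with Scrublet in scanpy 1.11.5, at an expected 0.8% per 1000 barcodes. Python 3.11.15, numpy 2.4.6, scipy 1.17.1, pandas 2.3.3 and matplotlib 3.10.9 were used, and the calculations were tested on simulated data.

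Alternatives were pseudocounts of 1 and 20 CPM, no filter or 50 CPM, rules of 2 or 4 venous genes, mitochondrial limits of 10% and 25%, a rule without *Lrg1*, thinning to 3000 UMIs, other comparison cells, and leaving out doublets, shared barcodes or single replicates. Leaving out mitotic cells, cells rich in haemoglobin and, for cells with and without *Ackr1*, single replicates was added after seeing the data.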

Additional observations from a re-analysis of the deposited data

Results flagged for a closer look

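For 6 of 178 listed genes outside the rule that were measured in both preparations (3.37%), the ratio of venous to other endothelial cells had 1 sign in all 3 cortical libraries and the opposite sign in all 3 hippocampal libraries. Of all 5965 such genes 194 (3.25%) met this description. These differences were not tested, and none of the values reached 2-fold. *Atf3*, a stress-induced transcription factor, had a log2 ratio of 0.50 in the cortex and -0.40 in the hippocampus. For *Lamb2*, a laminin chain, the values were 0.32 and -0.22, and for *Pglyrp1*, a peptidoglycan recognition protein, 0.33 and -0.28. The other three were lower in venous cells of the cortex and higher in those of the hippocampus. *Cx3cl1* (fractalkine) stood at -0.12 and 0.33, *Id2*, an inhibitor of bHLH factors, at -0.21 and 0.38, and *Sox7*, an endothelial transcription factor, at -0.27 and 0.20.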

How the results depend on the processing

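Each preparation was 1 pool of 3 mice, the venous cells were chosen by their own transcripts, and deeper cells meet the rule more often, so shares and ratios describe these libraries under this rule. No paired analysis was possible because the results come from no test. Venous and other cells of a library were compared as ratios within it, and between preparations the replicate numbers name technical replicates only. The venous share of endothelial cells was 17.2% (cortex) and 10.4% (hippocampus) with at least 2 venous genes, 2.82% and 1.55% with at least 4, and 1.51% and 1.13% with cells thinned to 3000 UMIs before the rule. Leaving out 1 replicate gave 5.76% to 6.29% and 3.30% to 3.74%. The counts of genes higher and lower in venous cells were 50 and 51 (cortex) and 55 and 81 (hippocampus) with a pseudocount of 20 CPM, 205 and 183, and 148 and 305, with no filter, and 38 and 45, and 43 and 53, with a filter of 50 CPM. With at least 4 venous genes 126 were lower in the cortex, and in the hippocampus 126 were higher and 232 lower, while with at least 2 only 45 were higher in the hippocampus. Between preparations, the genes higher in hippocampal and in cortical venous cells were 57 and 53, 293 and 298, and 54 and 38 under these settings of pseudocount, no filter and filter. Without 1 replicate, 82 to 97 genes were higher and 80 to 94 lower in the cortex, 89 to 99 and 130 to 156 in the hippocampus, and 99 to 129 and 92 to 118 between preparations. No other alternative run for a count moved it by over 1.5 times. Counts were not run with cells thinned before the rule or with *Lrg1* out of it, nor, between preparations, with other numbers of venous genes, mitochondrial limits or comparison cells.

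Of the 25 selected genes, 20 were past 2-fold in both preparations under all 19 alternatives. The exceptions were *Dll4* (cortex, -0.79) and *Acsl4* (0.93 and 0.81) with at least 2 venous genes, *Acsl4* also with a pseudocount of 20 CPM (0.94 and 0.96) and without replicate 3 (hippocampus, 0.93), *Ptgis* against depth-matched cells (hippocampus, 0.82), and *Efnb2* (cortex, -0.97) and *Tcim* (-0.79 and -0.90) with cells thinned before the rule. Of 8775 single values under the alternatives, 40 turned in sign. With at least 2 venous genes these were *Angpt2* (0.91) and *Nid2* (0.39) in the cortex. With cells thinned before the rule they were, in the cortex, *Cenpf* (-1.32), *Mki67* (-1.34), *Cdk1* (-1.96), *Top2a* (-1.80), *Birc5* (-1.17), *Cks2* (-1.99), *Eln* (0.82) and *Mgp* (1.02), and in the hippocampus *Mgp* (0.36), *Egr1* (0.69), *Hbb-bs* (-5.85), *Hba-a1* (-6.94) and *Hba-a2* (-5.52). Against endothelial cells with at most 1 venous and 1 arterial gene they were *Eln* (1.95) and *Mgp* (2.11) in the cortex and *Gkn3* (0.27), *Mgp* (2.90) and *Vegfc* (0.85) in the hippocampus. Without mitotic cells *Cenpf* (-0.0082), *Birc5* (-0.078) and *Cks2* (-0.044) turned in the cortex. Without cells over 10% haemoglobin *Hbb-bt* (0.17), *Hbb-bs* (0.22), *Hba-a1* (0.55) and *Hba-a2* (0.36) turned in the cortex, and *Hbb-bs* (-0.12), *Hba-a1* (-0.79) and *Hba-a2* (-0.30) in the hippocampus. The same 3 genes turned in the hippocampus with at least 4 venous genes (-6.64, -7.08 and -6.00), without doublets (-0.064, -0.79 and -0.32, with *Cldn11* at 0.50) and without replicate 2 (-7.09, -6.86 and -5.98, against 2.57, 2.87 and 2.92 without replicate 1), which held the 1 cell with most of the haemoglobin UMIs.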
